A study of Mus musculus with 24 samples.

Results

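The genes described here are 50 genes of the lysosome and of autophagy, chosen by name: 18 acid hydrolases, 4 other proteins of the lysosomal lumen, 8 lysosomal membrane proteins, 6 parts or accessory parts of the proton pump, 3 transcription factors of lysosomal genes, 4 autophagy receptors, 5 genes of the Atg8 family and 2 genes of autophagy initiation and conjugation. A gene was tested when at least 1 of its probes was detected, at a detection p under 0.01, on at least 3 of the 24 arrays, and it was then represented by its tested probe of highest mean intensity. This left 46 of the 50 members, against 8875 tested of the 19057 genes named on the array. Of the other 4, Cd68 and Optn were not named in the probe table used here, the single probe of Atp6v0d2 was detected on 0 arrays, and the 2 probes of Tfeb were detected on 0 arrays.

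The lysosome is the acidic compartment in which cells digest proteins, lipids and glycans. A proton pump, the vacuolar ATPase, acidifies it, and the hydrolases work in that acid. In autophagy, cytoplasmic material is wrapped in a membrane decorated with Atg8-family proteins, receptors such as p62 (Sqstm1) tie the cargo to that membrane, and the resulting vesicle fuses with the lysosome. In macrophages the same compartment digests engulfed microbes and cuts antigens for presentation.

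Bone marrow-derived macrophages from adult female C57bl/6J mice were compared in 2 genotypes, each with 3 animals. Macrophages of Gch1fl/flTie2cre mice (animals 1, 4 and 5) carried the floxed Gch1 allele and a Tie2cre transgene, which deletes Gch1 in endothelial and bone marrow-derived cells. Macrophages called wild-type (animals 2, 3 and 6) carried the same floxed Gch1 allele without the transgene, so every animal was Gch1fl/fl. Gch1 encodes GTP cyclohydrolase, the rate-limiting enzyme for tetrahydrobiopterin, the cofactor that inducible nitric oxide synthase needs to make nitric oxide. Cells grown in L929-conditioned medium were starved of serum and then given LPS, a bacterial cell wall component, together with interferon-gamma. RNA was taken at 0, 2, 8 and 24 h, which gave 8 groups of 3 arrays, and each animal supplied 4 arrays. Where 3 values are given for a group, they follow the order of animals 2, 3 and 6 or 1, 4 and 5.

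On the normalized log2 scale used throughout, Gch1 itself was 13.9 ± 0.08 (SD, n = 3) in wild-type and 11.3 ± 0.10 in Gch1fl/flTie2cre macrophages at 0 h, and the 2 genotypes did not overlap at any of the 4 times. Where the Gch1 probes lie relative to the deleted exons was not checked. Arrays had a mean intensity of 593.1 to 1750, highest on the 24 h array of wild-type animal 2, and 27.0% to 33.3% of probes were detected. Animals 5 and 6, of different genotypes, deviated together: their deviations from the group means correlated with each other at r = 0.73 to 0.81 at each time. The highest correlation of either with another animal was -0.32. Taking off the mean of 3 arrays itself pushes such values below zero, so the negative sign is not separate support. The paper's legends describe the array data as paired, without naming the pairs. The labels used here pair no animals of different genotypes, so the genotypes were compared unpaired. Of the macrophage markers, 7 of 8 were named and all 7 were detected on 24 arrays, with Cd68 not named. Their summed intensity was 76700 to 194000 in wild-type and 94400 to 176000 in Gch1fl/flTie2cre macrophages at 24 h. The 5 T cell and 3 dendritic cell markers were detected on 0 arrays. Of the other lists, the neutrophil genes Camp and Ngp were detected on 14 and 10 arrays and the endothelial gene Kdr on 8. Of the 4 fibroblast markers, Col1a1, Col1a2 and Col3a1 were detected on 0 arrays, and Dcn, detected on 10 arrays, had intensities of 163 to 291 up to 8 h in wild-type cells and of 254 to 1220 at 24 h. At 24 h Dcn was 435 to 706 in Gch1fl/flTie2cre macrophages, inside the wild-type range, and its part in the results was not tested.

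After LPS and interferon-gamma the 46 tested members moved in both directions, and mainly at 8 and 24 h. The arrays include no unstimulated cells at 2, 8 or 24 h. In every change from 0 h, the stimulus and the further hours in serum-free culture therefore cannot be told apart. A member is said to be called when limma gave an adjusted p under 0.05, adjusted over all 16498 tested probes, and a fold over 1.5. In bulk RNA, fewer cells of a type and less RNA per cell cannot be told apart. At 2 h, 1 member was called higher and 2 lower in wild-type macrophages, where 6.57% and 9.67% of all tested genes were called. At 2 h in Gch1fl/flTie2cre macrophages, 2 were called higher and 2 lower, against 6.31% and 10.7% of all genes. At 8 h, 3 members were called higher and 10 lower in wild-type macrophages, or 6.52% and 21.7% of the members, against 14.7% and 16.6% of all genes. The same counts, 3 and 10, were found in Gch1fl/flTie2cre macrophages at 8 h, against 15.8% and 19.2% of all genes. At 24 h, 9 were called higher and 4 lower in wild-type macrophages, or 19.6% and 8.70%, against 17.7% and 15.2% of all genes. In Gch1fl/flTie2cre macrophages at 24 h, 8 were called higher and 9 lower, or 17.4% and 19.6%, against 17.5% and 15.7%. The median member changed by -0.14, -0.16 and 0.14 on the log2 scale at 2, 8 and 24 h in wild-type macrophages, beside -0.10, -0.05 and 0.04 over all tested genes. In Gch1fl/flTie2cre macrophages it changed by -0.10, -0.08 and 0.04, beside -0.11, -0.06 and 0.02.

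**Figure D1:**
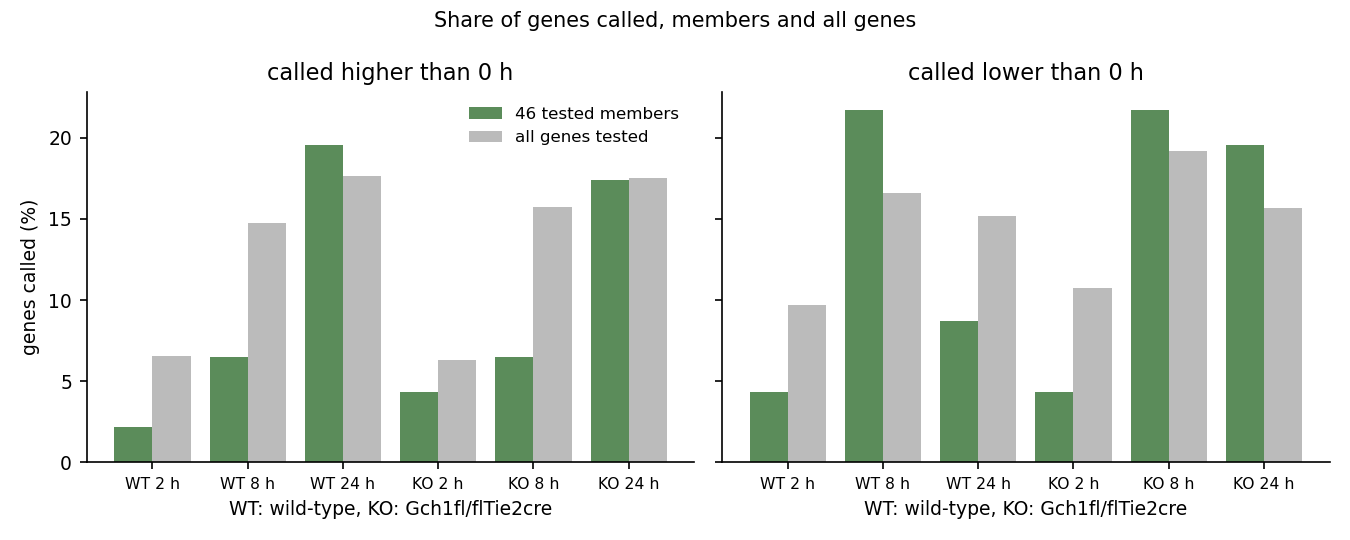
Bars give the percentage of genes called higher (left) or lower (right) than 0 h at 2, 8 and 24 h in wild-type (WT) and Gch1fl/flTie2cre (KO) macrophages, for the 46 tested members and for all 8875 tested genes. The members' share called higher at 8 h was 6.52% in each genotype, below the shares of all genes, 14.7% and 15.8%.

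A total of 24 members were called at some time in each genotype, and 19 were called at no time in either, on the brightest probe of each. The share of all tested genes called at some time was not counted, so these counts have no background beside them. Among those 19, another probe was called at some time for Atp6v0d1, Becn1, Ctsb and Lamp2. The 2 genotypes shared the call of 2 members at 2 h, 12 at 8 h and 11 at 24 h, and 0 members had opposite calls. Shared and opposite calls were not counted over all tested genes, so they are not read as particular to the members. For members called in a single genotype, the difference between the genotypes' responses was not called either. Without animals 5 and 6, which deviated together, 15 members were called in wild-type macrophages at 24 h, against 13 with them, and the 17 of Gch1fl/flTie2cre macrophages stayed at 17. At 8 h 16 were called in each genotype, against 13. At 2 h 4 were called in wild-type macrophages, against 3, and in Gch1fl/flTie2cre macrophages 0 were called higher and 3 lower, against 2 and 2. The shares of all tested genes called without these animals were not counted. The shifts in count are therefore not read as particular to the members.

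**Figure D2:**
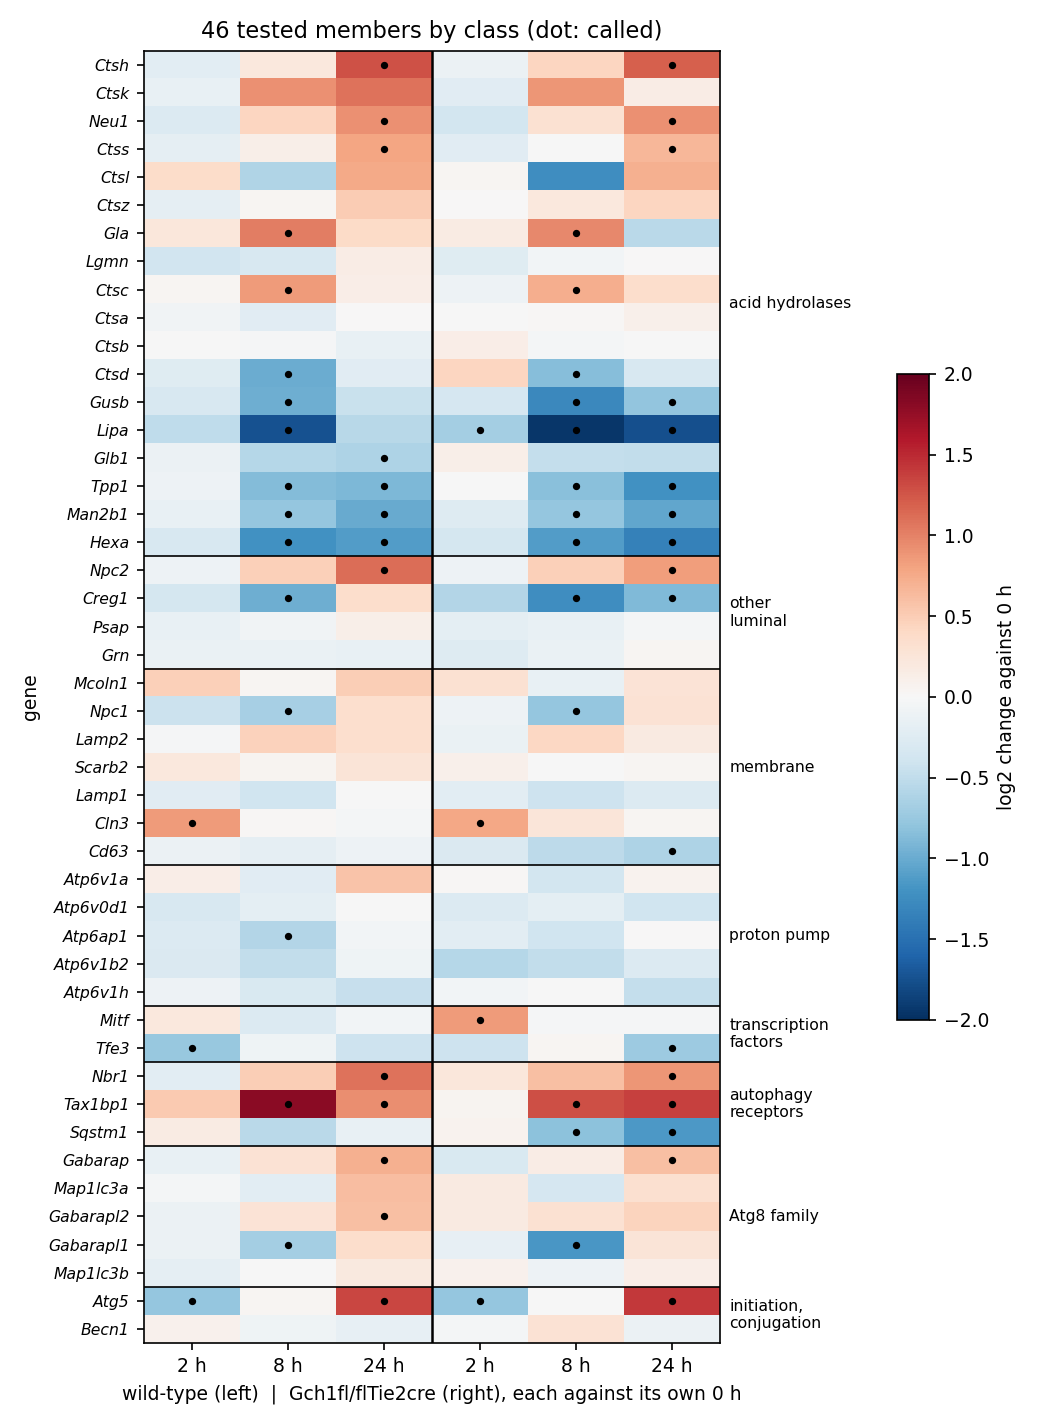
Each of the 46 tested members is a line of cells, grouped by class and ordered within a class by its change at 24 h in wild-type cells. Colour gives the log2 change against 0 h of the same genotype at 2, 8 and 24 h (wild-type left, Gch1fl/flTie2cre right), and a dot marks a call. Changes run from -1.95 for Lipa at 8 h in Gch1fl/flTie2cre cells to 1.80 for Tax1bp1 at 8 h in wild-type cells.

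The calls among the 18 acid hydrolases went both ways: Hexa, Man2b1 and Tpp1 fell by 24 h, and Ctsh, Ctss and Neu1 rose, in both genotypes. In wild-type macrophages 2 were called higher and 6 lower at 8 h, and 3 higher and 4 lower at 24 h. The Gch1fl/flTie2cre counts were 2 higher and 6 lower at 8 h, with 3 higher and 5 lower at 24 h. As shares of the 18 these were 11.1% and 33.3% at 8 h in each genotype, beside 14.7% and 16.6% of all genes in wild-type and 15.8% and 19.2% in Gch1fl/flTie2cre macrophages. At 24 h they were 16.7% higher and 22.2% lower in wild-type and 16.7% and 27.8% in Gch1fl/flTie2cre macrophages, beside 17.7% and 15.2%, and 17.5% and 15.7%. At 2 h, 0 hydrolases were called in wild-type macrophages by limma, and Lipa was called lower in Gch1fl/flTie2cre macrophages.

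Hexa encodes the alpha subunit of beta-hexosaminidase, which trims gangliosides and is lost in Tay-Sachs disease. In wild-type macrophages it was 13.69, 13.41 and 12.92 at 0 h, against 12.23, 12.35 and 12.10 at 24 h. Values in Gch1fl/flTie2cre macrophages were 13.56, 13.49 and 12.81 at 0 h, against 12.13, 11.89 and 11.80 at 24 h. All 24 h arrays lay below all 0 h arrays in each genotype. The fall was 2.17-fold in wild-type (adjusted p = 0.00047) and 2.55-fold in Gch1fl/flTie2cre macrophages (adjusted p = 7.3e-05), and Hexa was already called lower at 8 h in both.

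Man2b1, the lysosomal alpha-mannosidase of glycoprotein breakdown, was 14.35, 14.41 and 13.93 at 0 h, against 13.58, 13.21 and 12.88 at 24 h in wild-type macrophages. In Gch1fl/flTie2cre macrophages the arrays were 14.52, 14.29 and 14.18 at 0 h, against 13.75, 13.15 and 12.996 at 24 h. Again no 24 h array reached a 0 h array of its genotype. Man2b1 fell 2.01-fold (adjusted p = 0.0011) and 2.04-fold (adjusted p = 0.00086).

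Tpp1 encodes tripeptidyl peptidase, which removes tripeptides from the ends of proteins and is mutated in a childhood neuronal ceroid lipofuscinosis. It was 10.66, 10.79 and 10.74 at 0 h, against 9.91, 9.74 and 9.86 at 24 h in wild-type macrophages. The Gch1fl/flTie2cre arrays were 10.77, 10.88 and 10.62 at 0 h, against 9.53, 9.65 and 9.47 at 24 h. The times were separated in each genotype, and all 3 Gch1fl/flTie2cre arrays at 24 h lay below all 3 wild-type arrays. The fall over time was 1.86-fold (adjusted p = 0.0032) and 2.31-fold (adjusted p = 0.00025), and the genotype difference at 24 h, -0.29 ± 0.23 (SE) on the log2 scale, was not called (adjusted p = 0.85).

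Other hydrolases had calls at a single time or in a single genotype. Glb1, the lysosomal beta-galactosidase, fell 1.53-fold at 24 h in wild-type macrophages. Its fall of 1.40-fold in Gch1fl/flTie2cre macrophages had an adjusted p of 0.013 but stayed under the fold threshold. Gusb, the beta-glucuronidase, fell 1.98-fold and 2.46-fold at 8 h in wild-type and Gch1fl/flTie2cre macrophages, and changed by -0.45 and -0.80 at 24 h, where its brightest probe was called in the latter. Of its 3 other probes, each detected on 24 arrays, 2 were called lower at 24 h in both genotypes (-0.75 and -0.83 for one, -0.98 and -1.41 for the other) and 1 in neither. Ctsd, the main aspartic protease of the lysosome, fell 2.00-fold and 1.80-fold at 8 h and was called at no other time. Gla, the alpha-galactosidase that is missing in Fabry disease, and Ctsc, the dipeptidyl peptidase that activates granule proteases, rose at 8 h in each genotype. The rise of Gla was 2.03-fold and 1.94-fold, that of Ctsc 1.81-fold and 1.65-fold, and neither was called at 24 h. The probes of Ctsd and Gla were dim, at 0.634% to 3.01% and 0.556% to 1.99% of the array maximum, though detected on 24 arrays.

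The hydrolases that rose by 24 h were Ctsh, Ctss and Neu1. Ctsh, an aminopeptidase among the cathepsins, was 13.42, 13.18 and 12.78 at 0 h, against 14.26, 14.22 and 14.74 at 24 h in wild-type macrophages. Values in Gch1fl/flTie2cre macrophages were 13.10, 13.36 and 12.57 at 0 h, against 14.24, 14.04 and 14.37 at 24 h. All 24 h arrays were above the 0 h arrays, with rises of 2.42-fold (adjusted p = 0.00052) and 2.30-fold (adjusted p = 0.00088).

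Ctss encodes cathepsin S, which degrades the invariant chain of MHC class II. It was 14.22, 14.38 and 13.81 at 0 h, against 14.88, 14.95 and 14.97 at 24 h in wild-type macrophages, and 14.40, 14.28 and 13.97 at 0 h, against 14.73, 14.95 and 14.97 at 24 h in Gch1fl/flTie2cre macrophages. The times did not overlap in either genotype. It rose 1.74-fold (adjusted p = 0.0024) and 1.59-fold (adjusted p = 0.0086).

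Neu1, the lysosomal sialidase, was 12.09, 12.26 and 12.37 at 0 h, against 12.99, 13.05 and 13.44 at 24 h in wild-type macrophages. Values in Gch1fl/flTie2cre macrophages were 12.34, 12.46 and 12.44 at 0 h, against 13.01, 13.24 and 13.75 at 24 h. The rise was 1.89-fold in each (adjusted p = 0.00041 and 0.00038), with no overlap between the times. Neu1 had 0 calls at 2 h and 8 h.

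The remaining 6 hydrolases, Ctsa, Ctsb, Ctsk, Ctsl, Ctsz and Lgmn, had no call on their brightest probe in any comparison. Ctsk, the collagen-degrading cathepsin, illustrates the spread: it was 9.97, 9.93 and 12.64 at 24 h in wild-type macrophages, with animal 6 far above the other two, and its change of 1.09 ± 0.56 was not called (adjusted p = 0.14). Ctsl, detected on 23 of the arrays, was 10.39 in animal 6 and 10.35 in animal 5 at 24 h, above the 4 other animals at 8.64 to 9.31. The probe shown for Ctsb lay at 78.7% to 91.3% of the brightest probe of its array. A second Ctsb probe, dim and detected on 10 arrays, was called lower at 24 h, by 1.76 and 1.58 on the log2 scale below 0 h in wild-type and Gch1fl/flTie2cre macrophages.

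The 4 other luminal proteins were Npc2, Creg1, Psap and Grn. At 8 h, 1 (25%) was called lower in each genotype, beside 16.6% and 19.2% of all genes. At 24 h, 1 (25%) was called higher in each, beside 17.7% and 17.5%. A further 1 (25%) was called lower at 24 h in Gch1fl/flTie2cre macrophages, beside 15.7%. Npc2, which hands cholesterol to the membrane transporter Npc1, was 14.22, 14.25 and 14.14 at 0 h, against 15.40, 15.24 and 15.30 at 24 h in wild-type macrophages. In Gch1fl/flTie2cre macrophages it was 14.40, 14.35 and 14.29 at 0 h, against 15.04, 15.32 and 15.21 at 24 h. The times were far apart in each genotype, with rises of 2.17-fold (adjusted p = 6.6e-07) and 1.78-fold (adjusted p = 1.9e-05). The difference between these responses, -0.28 ± 0.16 on the log2 scale, was not called (adjusted p = 0.97). Npc2 reached 90.2% of the array maximum. Psap, the precursor of the saposins that present lipids to hydrolases, and Grn, the progranulin precursor, had no call, and their probes reached 96.6% and 81.8% of the array maximum.

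Of the 7 tested membrane proteins, 1 (14.3%) was called higher at 2 h in each genotype, beside 6.57% and 6.31% of all genes. At 8 h 1 (14.3%) was called lower in each, beside 16.6% and 19.2%. At 24 h 0 were called in wild-type macrophages and 1 lower (14.3%) in Gch1fl/flTie2cre macrophages, beside 15.2% and 15.7% of all genes called lower. Lamp1 and Lamp2, the abundant glycoproteins that line the lysosome, stayed under the fold threshold at each time on their brightest probes. At 8 h Lamp1 changed by -0.39 and -0.41 and Lamp2 by 0.46 and 0.41 in wild-type and Gch1fl/flTie2cre macrophages, each with an adjusted p under 0.05. Cln3, a lysosomal membrane protein mutated in juvenile ceroid lipofuscinosis, was the only member called higher at 2 h in both genotypes, and its call in Gch1fl/flTie2cre macrophages was lost without animals 5 and 6. It was 12.59, 12.36 and 11.95 at 0 h, against 13.23, 13.17 and 13.05 at 2 h in wild-type macrophages, and 12.40, 12.69 and 11.91 at 0 h, against 13.05, 13.18 and 13.10 at 2 h in Gch1fl/flTie2cre macrophages. The 2 h arrays lay above the 0 h arrays in each, by 1.80-fold (adjusted p = 0.0072) and 1.71-fold (adjusted p = 0.013), and by 24 h the change was -0.04 and 0.05.

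Npc1, the cholesterol transporter of the lysosomal membrane, was called lower at 8 h in both genotypes on its brightest probe, by 1.58-fold and 1.71-fold. Its probes disagreed. A second probe fell by 1.03 and 1.21 on the log2 scale, while a further probe, also detected on all 24 arrays, rose by 1.71 and 1.75, so no single direction can be given for Npc1. Cd63, a tetraspanin of late endosomes, was called lower at 24 h in Gch1fl/flTie2cre macrophages on its brightest probe, with a change of -0.62 against -0.10 in wild-type macrophages. Its other probes, each detected on 24 arrays, did not show that contrast: one was called lower in both genotypes (-0.78 in wild-type and -0.63 in Gch1fl/flTie2cre macrophages), and the other was called in neither (-0.68 and -0.44). Scarb2, the receptor that carries glucocerebrosidase to lysosomes, and Mcoln1, a lysosomal calcium channel, had no call.

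Of the 5 tested proton pump genes, 1 (20%) was called lower at 8 h in wild-type macrophages, beside 16.6% of all genes. This was Atp6ap1, an accessory subunit, with a 1.51-fold fall on its brightest probe. The brightest probes of the pump genes had no other call. In Gch1fl/flTie2cre macrophages Atp6ap1 changed by -0.39 at 8 h, under the fold threshold. The others were Atp6v0d1, of the membrane sector, and Atp6v1a, Atp6v1b2 and Atp6v1h, of the sector that splits ATP. Their changes ran from -0.57 for Atp6v1b2 at 2 h in Gch1fl/flTie2cre macrophages to 0.57 for Atp6v1a at 24 h in wild-type macrophages. Both of these had an adjusted p under 0.05 but not the fold. One of the other probes of Atp6v0d1 was called lower at 24 h in Gch1fl/flTie2cre macrophages (-0.60, adjusted p = 0.0183).

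TFEB, TFE3 and MITF are related factors that bind the CLEAR element, a palindrome found before many lysosomal genes. Tfeb was not detected on any array, and the other two were called in few comparisons. Tfe3 was called lower at 2 h in wild-type macrophages (-0.75 ± 0.25, adjusted p = 0.043) and at 24 h in Gch1fl/flTie2cre macrophages (-0.73 ± 0.25, adjusted p = 0.028). Mitf was called higher at 2 h in Gch1fl/flTie2cre macrophages alone (0.86 ± 0.26, adjusted p = 0.025), with 0.21 ± 0.26 in wild-type macrophages. The call of Mitf was lost without animals 5 and 6, and the differences between the genotypes' responses were not called for either gene.

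The CLEAR element was looked for in the RefSeq windows (GRCm38.p6) of 250 bases before to 50 bases after each transcript start, which were given for 42 of the 50 members. The core searched, TCACGTGA, reads the same on both strands and contains the general E-box CACGTG. It was in the windows of 7 of the 42 members (16.7%), against 1.12% of all 27025 genes with a window. The E-box was in 28.6% of the members and 8.09% of all genes, the GC box GGGCGG in 76.2% and 38.2%, and the CCAAT box in 40.5% and 41.1%. The TATA box TATAAA, like the GC and CCAAT boxes searched on both strands, was in 11.9% and 15.7%. The stretches around each core are shown because they name the 7 members that carry it. Capitals mark the core, each line runs 5′ to 3′ on the strand of the gene, and Ctsa and Gla carry the core at 2 places.
Ctsa, chr2:164833744-164833783, plus strand: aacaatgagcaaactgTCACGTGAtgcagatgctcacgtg
Ctsa, chr2:164833761-164833800, plus strand: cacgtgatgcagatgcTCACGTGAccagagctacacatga
Cln3, chr7:126583335-126583374, minus strand: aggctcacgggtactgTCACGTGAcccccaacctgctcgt
Ctsd, chr7:142387903-142387942, minus strand: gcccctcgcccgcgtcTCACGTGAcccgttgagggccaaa
Gla, chrX:134601210-134601249, minus strand: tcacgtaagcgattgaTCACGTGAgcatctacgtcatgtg
Gla, chrX:134601177-134601216, minus strand: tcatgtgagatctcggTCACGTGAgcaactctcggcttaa
Mcoln1, chr8:3500457-3500496, plus strand: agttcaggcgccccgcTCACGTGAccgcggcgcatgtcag
Atp6v0d1, chr8:105566045-105566084, minus strand: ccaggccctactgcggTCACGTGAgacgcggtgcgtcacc
Atp6v1a, chr16:44139368-44139407, minus strand: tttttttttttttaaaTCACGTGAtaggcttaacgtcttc

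The 7 members with the core did not share a response. Cln3 was called higher at 2 h, Gla higher at 8 h and Ctsd lower at 8 h, each in both genotypes, while Ctsa, Mcoln1, Atp6v0d1 and Atp6v1a had no call on their brightest probes. A match is a description of the letters in these windows and not of binding.

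Autophagy receptors bind a cargo with one end and an Atg8-family protein with the other. Of the 3 tested receptors, Tax1bp1 and Nbr1 rose in both genotypes, and Sqstm1 fell in Gch1fl/flTie2cre macrophages. At 24 h, 2 (66.7%) were called higher in each genotype, beside 17.7% and 17.5% of all genes. In Gch1fl/flTie2cre macrophages 1 (33.3%) was called lower at 24 h, beside 15.7%. With 3 genes, these shares are not read as particular to the receptors. Tax1bp1, a receptor that also helps limit NF-kappaB signalling, was 12.43, 12.23 and 12.39 at 0 h, 14.09, 14.18 and 14.19 at 8 h, then 13.10, 13.30 and 13.45 at 24 h in wild-type macrophages. For Gch1fl/flTie2cre macrophages, the values were 12.79, 12.58 and 12.49 at 0 h, 13.92, 13.93 and 13.89 at 8 h, then 13.25, 14.32 and 14.39 at 24 h. All 8 h and 24 h arrays were above the 0 h arrays, and at 24 h animals 4 and 5 stood above animal 1 and above every wild-type array. The rise at 8 h was 3.49-fold (adjusted p = 2e-05) and 2.45-fold (adjusted p = 0.00053), and at 24 h it was 1.91-fold (adjusted p = 0.0068) and 2.58-fold (adjusted p = 0.00032). The genotype difference at 24 h, 0.70 on the log2 scale with a 95% interval of 0.14 to 1.26, was not called (adjusted p = 0.35).

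Nbr1, a receptor related to p62, was 6.95, 6.32 and 7.39 at 0 h, against 7.39, 7.79 and 8.74 at 24 h in wild-type macrophages. For Gch1fl/flTie2cre macrophages, the values were 6.73, 6.74 and 7.32 at 0 h, against 7.34, 7.53 and 8.60 at 24 h. The highest arrays at 24 h were those of animals 6 and 5, and in wild-type macrophages the lowest 24 h array and the highest 0 h array were the same to 2 decimals. Nbr1 rose 2.12-fold (adjusted p = 0.017) and 1.85-fold (adjusted p = 0.045), on a probe detected on 21 of the arrays.

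The Atg8 family is split into LC3 and GABARAP branches, and the calls lay in the GABARAP branch. At 24 h, 2 of the 5 genes (40%) were called higher in wild-type and 1 (20%) in Gch1fl/flTie2cre macrophages, beside 17.7% and 17.5% of all genes. At 8 h, 1 (20%) was called lower in each genotype, beside 16.6% and 19.2%. Gabarap was 14.01, 13.90 and 13.70 at 0 h, against 14.51, 14.68 and 14.53 at 24 h in wild-type macrophages, and 13.95, 14.002 and 13.66 at 0 h, against 14.23, 14.68 and 14.50 at 24 h in Gch1fl/flTie2cre macrophages. The times did not overlap, and Gabarap rose 1.63-fold (adjusted p = 0.0024) and 1.51-fold (adjusted p = 0.0076). Gabarapl2 was 9.21, 9.29 and 9.35 at 0 h, against 9.65, 9.83 and 10.18 at 24 h in wild-type macrophages. It was 9.16, 8.90 and 9.78 at 0 h, against 9.41, 10.06 and 9.71 at 24 h in Gch1fl/flTie2cre macrophages, where the times overlapped. The rise of 1.52-fold in wild-type macrophages was called (adjusted p = 0.027), that of 1.36-fold in Gch1fl/flTie2cre macrophages was not (adjusted p = 0.095). A dim second probe of Gabarapl2, detected on 13 arrays, fell by 0.91 on the log2 scale at 24 h in wild-type macrophages, so the direction of Gabarapl2 depends on the probe. Gabarapl1 was called lower at 8 h, by 1.60-fold and 2.24-fold, and had returned by 24 h, at changes of 0.35 and 0.26. Map1lc3a and Map1lc3b, of the LC3 branch, had no call, with changes between -0.33 and 0.61. The 0.61 was that of Map1lc3a at 24 h in wild-type macrophages, as large as the called rise of Gabarapl2 there. The calls thus do not separate the branches by size of change.

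Atg5, which is joined to Atg12 in the machinery that attaches Atg8 proteins to membranes, was the one member called lower and then higher, and on its brightest probe was so in both genotypes. In wild-type macrophages it was 12.21, 12.30 and 12.03 at 0 h, 11.43, 11.48 and 11.32 at 2 h, then 13.32, 13.63 and 13.59 at 24 h. For Gch1fl/flTie2cre macrophages, the values were 11.99, 12.15 and 12.07 at 0 h, 11.21, 11.48 and 11.19 at 2 h, then 13.08, 13.73 and 13.62 at 24 h. Neither the 2 h nor the 24 h arrays overlapped with 0 h. The fall at 2 h was 1.70-fold (adjusted p = 0.0021) and 1.71-fold (adjusted p = 0.002), and the rise at 24 h was 2.52-fold (adjusted p = 3.7e-06) and 2.65-fold (adjusted p = 1.9e-06). Its second probe was called higher at 24 h in both genotypes as well, by 1.40 and 1.67 on the log2 scale, and was called lower at 2 h in wild-type macrophages (-0.62) but not in Gch1fl/flTie2cre macrophages (-0.42, adjusted p = 0.0802). Becn1, a subunit of the kinase complex that starts autophagosomes, had no call on its brightest probe. Its second probe, also detected on 24 arrays, was called lower at 24 h in wild-type macrophages (-0.65, adjusted p = 0.0102) and not in Gch1fl/flTie2cre macrophages (-0.24). The genotype difference at 24 h was 0.00 with a 95% interval of -0.30 to 0.31 on the first probe and 0.47 (adjusted p = 0.434) on the second.

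**Figure D3:**
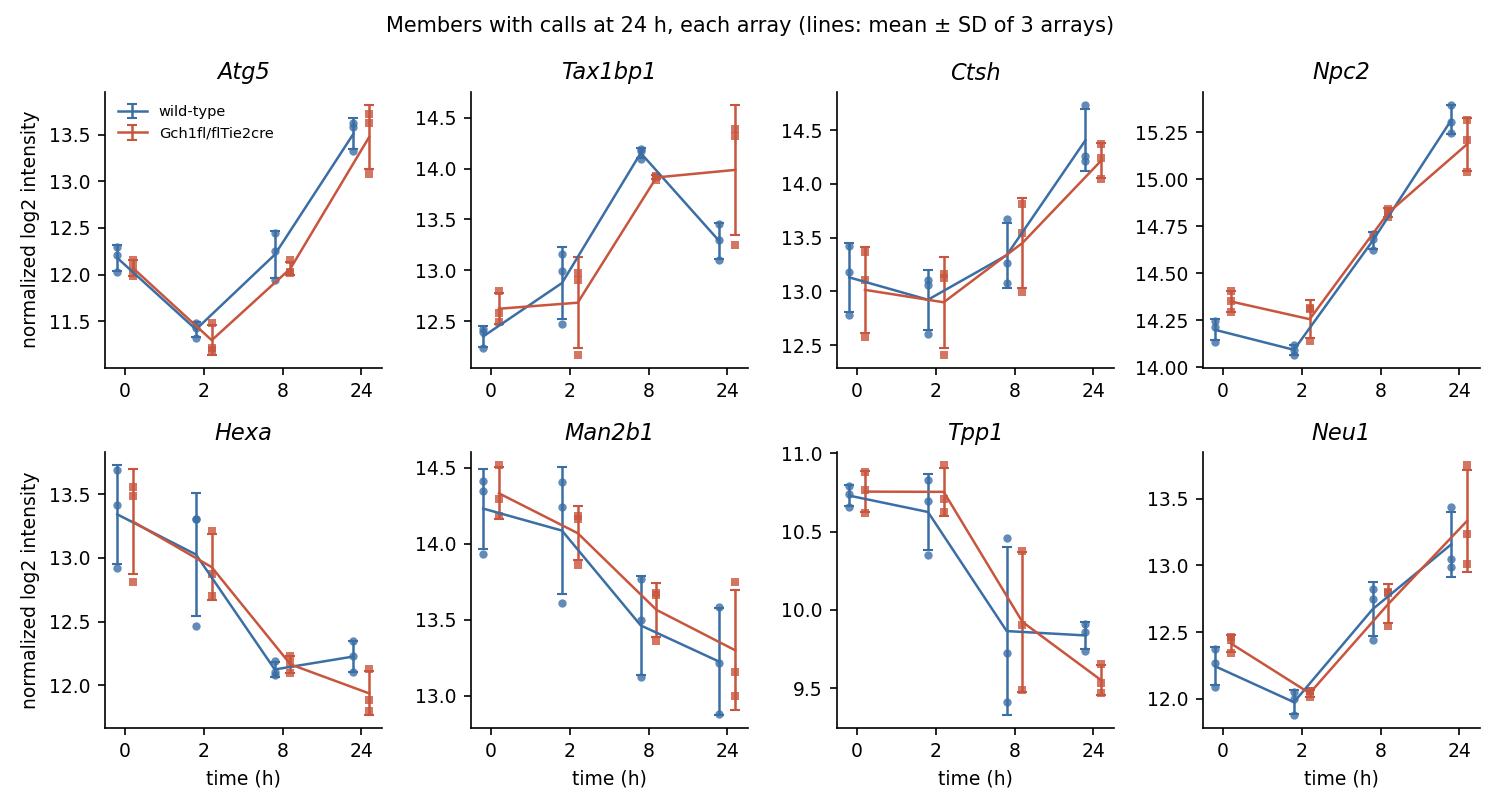
Points are single arrays and lines join the means ± SD of 3 arrays at 0, 2, 8 and 24 h, in wild-type (blue) and Gch1fl/flTie2cre (red) macrophages, on the normalized log2 scale with a separate range for each gene. Atg5 dipped at 2 h before its rise, Tax1bp1 was highest at 8 h in wild-type cells, Ctsh, Npc2 and Neu1 were highest at 24 h, and Hexa, Man2b1 and Tpp1 had fallen by 8 h.

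The study asked how loss of Gch1 alters the activation of macrophages, so the genotypes were compared at each time. At 0, 2 and 8 h, limma called 0 of the 46 members, where 0.0225% of all tested genes were called at each of these times. At an unadjusted p under 0.05 there were 0, 0 and 1 members, beside 273, 424 and 760 of all 16498 tested probes. At 24 h, 0 members were called higher in Gch1fl/flTie2cre macrophages, against 0.0676% of all genes, and 3 were called lower, against 0.27% of all genes. These were Lipa, Creg1 and Sqstm1, or 6.52% of the members. Because the members were chosen with earlier results of these data known, the shares set side by side in this paragraph are descriptive. They are not independent support for a difference of lysosomal genes between genotypes. The median member differed by -0.15 on the log2 scale, beside -0.02 over all genes, and 33 of the 46 members lay below zero, beside 4716 of all 8875 genes. The arrays of the genotypes did not overlap at 24 h for 8 members, all lower in Gch1fl/flTie2cre macrophages, while among all tested genes 6.34% were without overlap and lower and 5.41% without overlap and higher.

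Lipa encodes lysosomal acid lipase, which splits the cholesteryl esters and triglycerides that reach the lysosome. It was 13.77, 13.94 and 14.11 at 0 h, 11.95, 12.15 and 12.51 at 8 h, then 12.94, 13.41 and 13.78 at 24 h in wild-type macrophages. For Gch1fl/flTie2cre macrophages, the values were 14.03, 13.91 and 13.90 at 0 h, 11.90, 11.96 and 12.14 at 8 h, then 11.84, 11.95 and 12.76 at 24 h. The genotypes overlapped at 0 and 8 h, and at 24 h every Gch1fl/flTie2cre array was below every wild-type array, with animal 5 nearest to them. From 0 to 8 h Lipa fell 3.33-fold in wild-type (adjusted p = 4.6e-06) and 3.85-fold in Gch1fl/flTie2cre macrophages (adjusted p = 1.1e-06). At 24 h it was 1.48-fold below 0 h in wild-type macrophages, under the fold threshold, and 3.39-fold below in Gch1fl/flTie2cre macrophages (adjusted p = 4e-06). Lipa was the only member called lower at all 3 times in Gch1fl/flTie2cre macrophages, on its brightest probe. Its second probe was not called at 2 h there (-0.54, adjusted p = 0.0645) and was called lower at 24 h in wild-type macrophages (-0.59). The genotype difference at 24 h was 2.29-fold (-1.20 ± 0.23 on the log2 scale, 95% interval -1.67 to -0.72, adjusted p = 0.0237). For the genotype difference at 24 h the second probe gave -1.29 (adjusted p = 0.00927).

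Creg1 encodes a secreted glycoprotein of the endosome and lysosome, named as a cellular repressor of E1A-stimulated genes. It was 12.79, 13.11 and 12.61 at 0 h, 11.86, 11.85 and 11.87 at 8 h, then 12.84, 13.52 and 13.19 at 24 h in wild-type macrophages. For Gch1fl/flTie2cre macrophages, the values were 12.94, 12.94 and 12.92 at 0 h, 11.61, 11.46 and 12.02 at 8 h, then 12.01, 11.93 and 12.23 at 24 h. Wild-type arrays were back at or above their 0 h levels by 24 h, and all Gch1fl/flTie2cre arrays remained below theirs. Creg1 fell 1.97-fold and 2.36-fold at 8 h, and at 24 h its change was 0.35 ± 0.22 (adjusted p = 0.24) in wild-type and -0.88 ± 0.22 (adjusted p = 0.0048) in Gch1fl/flTie2cre macrophages. The genotype difference at 24 h was 2.19-fold (-1.13 ± 0.24, 95% interval -1.63 to -0.63, adjusted p = 0.0454).

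Sqstm1 encodes p62, the receptor that carries ubiquitinated cargo to autophagosomes and that binds Keap1, the inhibitor of the transcription factor NRF2. It was 14.72, 14.87 and 15.01 at 0 h, 14.37, 14.20 and 14.40 at 8 h, then 14.34, 14.81 and 15.01 at 24 h in wild-type macrophages. Gch1fl/flTie2cre macrophages had values of 14.96, 14.75 and 15.01 at 0 h, 14.01, 13.90 and 14.34 at 8 h, then 13.46, 13.60 and 14.23 at 24 h. At 24 h the genotypes did not overlap, though the highest Gch1fl/flTie2cre array, of animal 5, was close to the lowest wild-type array, of animal 2. Sqstm1 fell 2.21-fold from 0 to 24 h in Gch1fl/flTie2cre macrophages (adjusted p = 0.0001) and changed by -0.14 ± 0.19 in wild-type macrophages (adjusted p = 0.58). The genotype difference at 24 h was 1.94-fold (-0.96 ± 0.20, 95% interval -1.37 to -0.54, adjusted p = 0.0423).

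**Figure D4:**
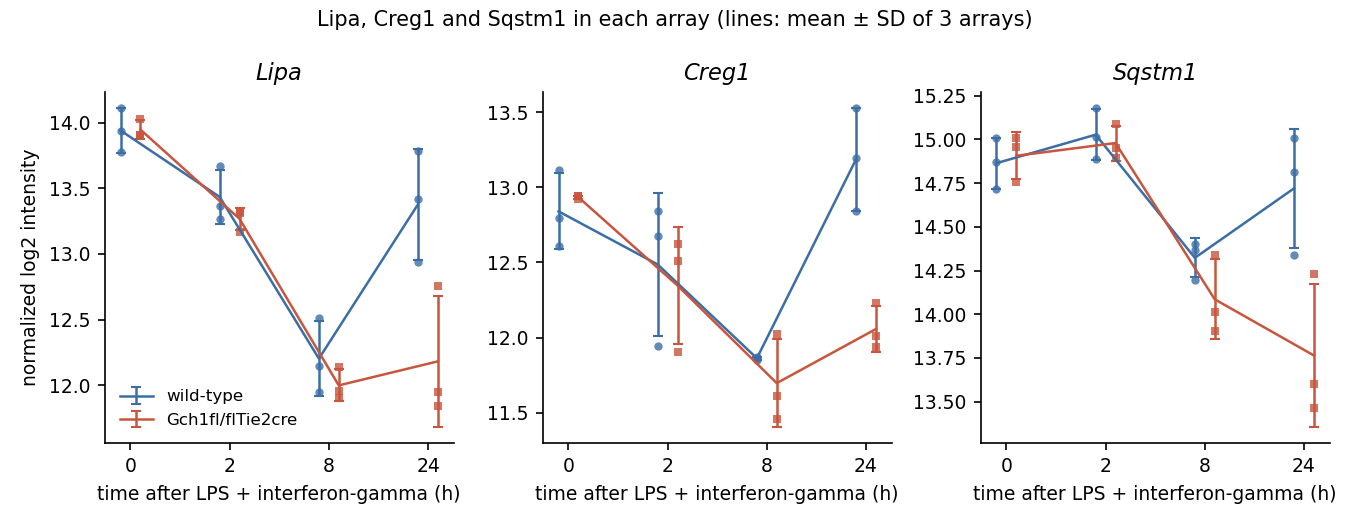
Points are single arrays of Lipa, Creg1 and Sqstm1 at 0, 2, 8 and 24 h on the normalized log2 scale, wild-type in blue and Gch1fl/flTie2cre in red, and lines join the means ± SD of 3 arrays. The genotypes overlap at 0, 2 and 8 h and are apart at 24 h, where wild-type Lipa lies at 12.94 to 13.78 and Gch1fl/flTie2cre Lipa at 11.84 to 12.76.

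Whether the response itself differed between genotypes was tested as the difference of the 2 changes from 0 h. At 2 and 8 h limma called 0 members and 0% of all genes. An unadjusted p under 0.05 was reached by 0 members, beside 225 and 365 of all 16498 tested probes. At 24 h, 0 members were called in either direction, where 0% of all genes were called higher and 0.0113% lower. There, 4 members had an unadjusted p under 0.05, all lower, beside 955 of all 16498 tested probes in either direction. The change from 0 to 24 h of Lipa was -0.83, -0.52 and -0.33 in wild-type animals 2, 3 and 6, and -2.19, -1.96 and -1.15 in Gch1fl/flTie2cre animals 1, 4 and 5. That of Creg1 was 0.05, 0.41 and 0.58, and -0.93, -1.0 and -0.70. That of Sqstm1 was -0.37, -0.06 and 0.00, and -1.49, -1.15 and -0.78. Each Gch1fl/flTie2cre animal changed further downward than each wild-type animal for all 3 genes. The differences of responses were -1.20 ± 0.30, -1.22 ± 0.32 and -1.0 ± 0.26, with adjusted p of 0.264, 0.273 and 0.299. Without animals 5 and 6, limma called the difference of responses of Lipa (-1.39, adjusted p = 0.0294) and not those of Creg1 (adjusted p = 0.0948) and Sqstm1 (adjusted p = 0.0901).

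The genotype calls at 24 h depended on the arrays and the normalization. The 3 members were called also without animals 5 and 6 (adjusted p = 0.00447, 0.012 and 0.0152 for Lipa, Creg1 and Sqstm1) and without the bright 24 h array of wild-type animal 2 (adjusted p = 0.00601, 0.0138 and 0.00903). With animals 5 and 6 fitted as a block, limma called all 3 as well (adjusted p = 0.00715, 0.0184 and 0.0109). None was called without animal 1, 3, 4 or 6, or on the values the authors normalized by VSN, where the differences were -1.01, -0.95 and -0.75 (adjusted p = 0.0718, 0.112 and 0.317). None was called by limma when the genotypes were fitted at each time alone (adjusted p = 0.845 for each). The study compared genotypes per time on VSN values, and its list of genes altered at 24 h holds none of these 3.

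The RefSeq windows of the 3 genes are given because they are the members that differed by genotype. The core TCACGTGA and the E-box were at 0 places in each. Capitals mark the TATA box, the CCAAT box and the GC box, in the letters given above, on either strand, and each runs 5′ to 3′ on the strand of its gene.
Lipa, chr19:34527425-34527724, minus strand: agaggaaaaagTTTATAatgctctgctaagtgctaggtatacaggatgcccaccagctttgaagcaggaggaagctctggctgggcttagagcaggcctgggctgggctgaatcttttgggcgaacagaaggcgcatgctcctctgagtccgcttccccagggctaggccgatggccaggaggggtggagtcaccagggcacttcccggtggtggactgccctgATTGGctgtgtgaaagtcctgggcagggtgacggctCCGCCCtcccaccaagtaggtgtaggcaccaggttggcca
Creg1, chr1:165763508-165763807, plus strand: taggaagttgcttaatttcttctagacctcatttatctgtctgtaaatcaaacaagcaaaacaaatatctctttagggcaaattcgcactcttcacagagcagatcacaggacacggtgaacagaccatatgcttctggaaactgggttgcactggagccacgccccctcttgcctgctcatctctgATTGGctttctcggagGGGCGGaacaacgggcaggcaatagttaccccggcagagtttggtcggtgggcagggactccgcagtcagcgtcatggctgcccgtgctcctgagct
Sqstm1, chr11:50210771-50211070, minus strand: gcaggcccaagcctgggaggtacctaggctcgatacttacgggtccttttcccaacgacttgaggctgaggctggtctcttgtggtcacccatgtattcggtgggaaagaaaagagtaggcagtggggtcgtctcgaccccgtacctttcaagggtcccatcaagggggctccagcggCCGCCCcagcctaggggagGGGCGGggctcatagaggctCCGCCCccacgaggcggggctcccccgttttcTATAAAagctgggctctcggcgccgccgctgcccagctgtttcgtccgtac

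The other 43 tested members were not called between genotypes at 24 h. An unadjusted p under 0.05 was reached by 7 of the 46 members, beside 1544 of all 16498 tested probes. Besides the 3 called members, Tax1bp1 was higher and 3 others were lower. Atp6v0d1 differed by -0.51 (95% interval -0.81 to -0.21, adjusted p = 0.149) and Atp6v1a by -0.38 (-0.73 to -0.02, adjusted p = 0.487). Cd63, on its brightest probe, differed by -0.53 (-0.95 to -0.10, adjusted p = 0.361). The genotypes overlapped for Tax1bp1 and did not overlap for these 3 lower members. The other probes of Atp6v0d1 gave -0.57, -0.68 and -0.66, while those of Cd63 gave -0.14 and 0.16, none of them called. Lamp1 and Tpp1 completed the 8 members without overlap. Intervals were narrow for some members, such as Npc2 at -0.39 to 0.13, and wide for others, such as Ctsk, whose lower bound of -1.86 was the lowest of the 46.

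**Figure D5:**
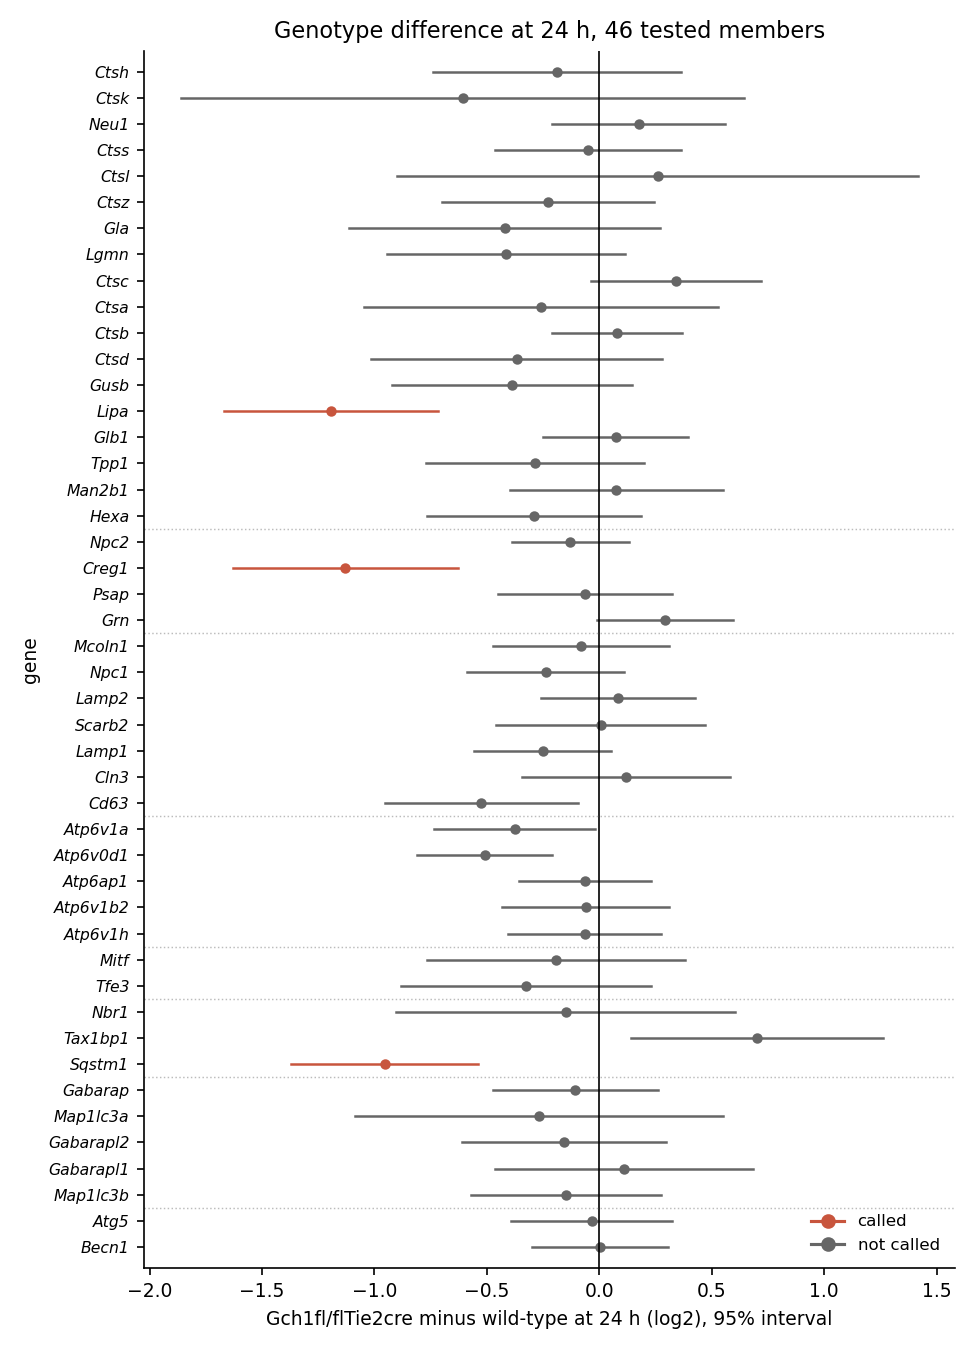
Each point is the difference of Gch1fl/flTie2cre minus wild-type macrophages at 24 h on the log2 scale for 1 of the 46 tested members, with its 95% interval, in the class order of the map of changes. Lipa, Creg1 and Sqstm1 (red) were called, at -1.20, -1.13 and -0.96, and the other 43 (grey) were not.

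A wider list of 123 other lysosome and autophagy genes, of which 104 were tested, gave the surroundings. At 24 h, 20 of the 104 were called higher and 13 lower in wild-type macrophages, and 16 and 11 in Gch1fl/flTie2cre macrophages. In wild-type macrophages these were 19.2% and 12.5% of the list, near the 17.7% and 15.2% of all tested genes, and in Gch1fl/flTie2cre macrophages 15.4% and 10.6%, beside 17.5% and 15.7%. The 8 h counts were 12 higher and 23 lower in wild-type macrophages and 11 higher and 27 lower in Gch1fl/flTie2cre macrophages, or 11.5% and 22.1%, and 10.6% and 26.0%, beside 14.7% and 16.6%, and 15.8% and 19.2%, of all genes. Those of 2 h were 1 higher and 12 lower in the former and 1 higher and 13 lower in the latter, or 0.962% and 11.5%, and 0.962% and 12.5%, beside 6.57% and 9.67%, and 6.31% and 10.7%, of all genes. The largest rises at 24 h in wild-type macrophages among hydrolases were those of Hyal1, a hyaluronidase (5.77-fold), and Fuca1, the lysosomal fucosidase (3.25-fold), and among autophagy genes that of Vmp1, a membrane protein needed to form autophagosomes (2.81-fold). Tfec, a relative of the TFEB family, fell 3.75-fold and Atp6v0a1, a membrane subunit of the pump, 3.03-fold. Between genotypes, limma called 0 of the 104 at 0, 2, 8 or 24 h. Of all tested genes, 0.0225% were called at each of 0, 2 and 8 h, and 0.338% at 24 h. An unadjusted p under 0.05 was reached by 1, 1, 5 and 10 of the 104. It was reached by 273, 424, 760 and 1544 of all 16498 tested probes.

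Of the 46 tested members, 19 had more than 1 tested probe, with 34 other probes in all. Beside 39 called values of a brightest probe stood a value of another probe of the same gene, which was called in the same direction in 29 cases and in the opposite direction in 3, the latter being the Npc1 and Gabarapl2 cases above. In the remaining cases the other probe was not called, and not all of these are named above. The other probes of Ctsc, Ctsh, Man2b1 and Nbr1 are counted here but their values are not given.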

How the data were processed

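Total RNA of 24 macrophage cultures was hybridised to Illumina MouseWG-6 v2 arrays. The authors extracted intensities with GenomeStudio, and their deposited tables give non-normalized probe intensity, a detection p-value per probe and log2 values normalized by VSN (limma, R 2.14 per the labels). Here the deposited intensity was background-corrected, quantile-normalized and put on a log2 scale with neqc of limma 3.58.1 (R 4.3.3, offset 16), using the detection p-values. Probes detected at p under 0.01 on at least 3 arrays were tested (16498). A mean was fitted for each of the 8 groups. Since an animal gave 4 arrays, animal entered as a random block (consensus correlation 0.124). The Benjamini-Hochberg adjustment ran across every tested probe. Calls required a fold above 1.5 and an adjusted p below 0.05. Of the tested probes, 14050 had 1 gene name, 8 several and 2440 none in the platform annotation, and only the first kind was named. The number of arrays, 3 per group, limits the precision. Array values are shown for up to 3 called members per class and direction with the largest change at 24 h in wild-type macrophages and for members called between genotypes. Cln3, Ctsk and Ctsl were added after their values were seen. The members and lists were chosen with earlier results of these data known. The tests were checked on simulated data. Alternatives were the fold threshold, VSN, background, normalization, probe filter, averaging of probes, block and left-out animals.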

Additional observations from a re-analysis of the deposited data

How the results depend on the processing

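In every alternative run, the 5 comparisons of genotypes or of responses made before 24 h called 0 members. The genotype count of 3 at 24 h went to 0 on the deposited VSN values, to 1 with cyclic loess and to 0 when the genotypes were fitted at each time alone. Leaving out each animal gave 0 to 3. The difference of responses at 24 h went from 0 to 1 without animals 5 and 6. The count of 4 in Gch1fl/flTie2cre macrophages at 2 h went to 2 with no filter on dim probes, and that of 13 at 8 h to 20 with no fold threshold. Leaving out each animal gave 1 to 3 members in wild-type macrophages at 2 h (1 without animal 3) and 8 to 14 at 8 h (8 without animal 2), and in Gch1fl/flTie2cre macrophages 1 to 4 at 2 h, 8 to 14 at 8 h (8 without animal 1) and 11 to 17 at 24 h (11 without animal 4). With the mean of a gene's probes, the 24 h change of Gabarapl2 in wild-type macrophages turned to -0.16. Each animal's own arrays pair the times: with the replicate block as a fixed term, 62 of 63 called values kept their call and 7 were new, and the counts at 24 h were 15 in wild-type and 18 in Gch1fl/flTie2cre macrophages; with no replicate block, 61 of 66 kept theirs. The cause of these shifts was not tested. Calls over all tested genes were not counted under the alternatives, so the shifts are not read as particular to the members. The 24 h array of wild-type animal 2 was left out after seeing the data, and 65 of 66 called values kept their call.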
